A study of Mus musculus with 20 samples.

Results

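The cytosolic ribosomal protein genes were examined as a group in ovaries of the high-fertility mouse line FL1 and of the unselected control line (ctrl). Members are the protein-coding genes of the annotation GENCODE M21 whose symbol is Rpl or Rps with a number, or is Rplp0, Rplp1, Rplp2 or Rpsa, and the Rps6k kinases were excluded. By this rule 83 of the 54838 genes in the count tables are members, 51 of the large and 32 of the small ribosomal subunit. The study compared the ovarian transcriptome of the lines in estrus and in diestrus, to see what accompanies the larger litters of FL1. The labels give 20 female mice aged 77 days, all of genotype WT and with no treatment named, in 4 groups of 5: both lines in estrus and both in diestrus. Both are outbred lines, 1 library is 1 animal, and each line is a single breeding population, so a difference between the lines cannot be told apart from any other difference between these populations. Since the label for the sample source names FL1 even for ctrl libraries, the groups follow the titles.

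Ribosomal proteins bind ribosomal RNA and form the large and the small subunit of the cytosolic ribosome, which makes nearly all proteins of the cell. Their messenger RNAs are abundant in most tissues, usually begin with a run of pyrimidines at the cap, and are made and translated together when cells grow. Mammalian genomes also hold many processed pseudogenes of them, intronless copies of the messenger RNA inserted elsewhere, most of which make no protein.

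Reads of this 3' mRNA-Seq protocol gather at the ends of transcripts, so a count does not grow with transcript length. Libraries held 5991223 to 10352718 counts, and levels are given as CPM, counts scaled to a common library total. Over all genes tested, the median log2 fold change (log2FC) was between -0.01 and 0.01 in each comparison. Among markers of other cells, the summed level of 6 oviduct markers was 21.3 to 35.0 CPM and that of 6 fat markers 22.4 to 139 CPM over the libraries, against 15932 to 50255 CPM for 8 luteal markers and 1674 to 6138 CPM for 10 granulosa markers. The ovary is a mixed tissue, and fewer cells of a type and less RNA per cell cannot be told apart here.

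Between 1.5% and 2.54% of all counts in a library fell on the 83 genes. In ctrl in estrus the share was 1.91%, 1.63%, 1.92%, 2.05% and 1.56%. In FL1 in estrus it was 2.54%, 2.18%, 1.73%, 2.05% and 2.02%. These groups overlapped, although 2 of the 5 FL1 libraries lay above every ctrl library in estrus. In diestrus the share was 2.36%, 1.86%, 1.58%, 1.95% and 1.70% in ctrl. In FL1 in diestrus it was 1.79%, 1.82%, 1.5%, 1.65% and 1.68%. Here the FL1 libraries lay within the range of ctrl or below it, and FL1 in diestrus had the lowest mean of the 4 groups, 1.69% ± 0.126 (SD, n = 5), against 1.81% ± 0.210 in ctrl in estrus, 2.10% ± 0.294 in FL1 in estrus and 1.89% ± 0.300 in ctrl in diestrus. The large subunit took 0.727% to 1.26% of the counts per library and the small subunit 0.752% to 1.28%, and for each subunit FL1 in estrus had the highest and FL1 in diestrus the lowest mean of the 4 groups. No test was made of these shares, because they sum genes that were chosen as a list. Within FL1 the diestrus libraries were lower than all but 1 of the estrus libraries, FL1 estrus replicate 3 at 1.73%.

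**Figure D1:**
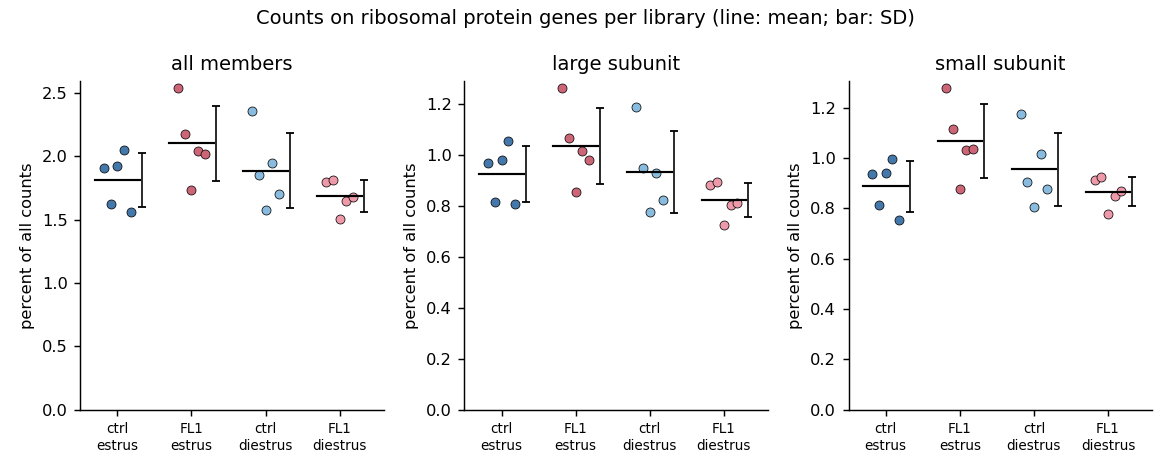
Percent of all counts that fell on ribosomal protein genes (vertical axis, percent) in each of the 20 libraries, for all 83 members, the large subunit and the small subunit. Points are libraries, horizontal lines are group means and bars are SDs (n = 5); FL1 in estrus has the highest mean (2.10%) and FL1 in diestrus the lowest (1.69%), with overlapping libraries.

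Counts were spread unevenly over the members. Among the highest mean levels over the 20 libraries were those of Rpl4 (1260 CPM), Rps14 (1245 CPM), Rps3 (1171 CPM) and Rpl8 (907 CPM). At the other end, Rps6, the small subunit protein phosphorylated by S6 kinase, had 9 counts in total over all libraries and 0 to 3 counts in any 1 library. Rpl3l had 17 counts in total, Rpl24 had 21, Rpl10l had 50 and Rpl10a had 99. At the depth of these libraries, 3 counts correspond to 0.290 to 0.501 CPM, and lower levels were not told from 0.

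These low counts have to be read beside the copies. Of the 83 members, 69 have at least 1 copy, and 629 of the 645 copies are annotated as pseudogenes. A copy is a gene elsewhere whose transcripts hold at least 50 of the 31-base words of the last 300 bases of any protein-coding transcript of the member. The reads were 51 bases long after trimming and only uniquely assigned reads were counted. Unique words are those found in no other gene's transcripts, genes that overlap the member left aside. They were sought in the last 300 bases of 1 principal transcript per member, which need not be the end that was counted. Rpl21 thus has 100% unique words and yet 55 copies, with 11941 counts against 1104 of its own. In Rps6, 16.8% of the 51-base words of the last 300 bases occur in no other gene's transcripts, and its 10 copies held 808 counts. In Rpl10 none of these words is unique to it, and its 13 copies held 7654 counts against 224 for Rpl10 itself. The 23 members with under 25% unique words had a median level of 3.64 CPM, the 23 members with 25% to under 75% had 129 CPM and the 37 members with 75% or more had 85.2 CPM. For 22 members the copies together held more counts than the member. Levels of different ribosomal protein genes in these tables are therefore not used to rank their expression. Low levels also occurred without copies: Rpl12 and Rpl6 have none and had means of 11.1 and 18.2 CPM. Rpl4 and Rps3, among the highest, have none either. Whether the copies account for the low counts was not tested. Rpl3l and Rpl10l, relatives of Rpl3 and Rpl10 known mainly from striated muscle and testis, have no copy by this definition and stayed at 0 to 5 and 0 to 8 counts per library. Rpl39l, the testis relative of Rpl39, also has none and had a mean of 2.12 CPM.

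In estrus, 5 ribosomal protein genes were lower in FL1 than in ctrl and 3 were higher, of 75 members tested. Rpl29, Rps2, Rpl26, Rpl35a and Rpl32 fell by 1.84 to 5.27 on the log2 scale, and Rpl17, Rps3 and Rpl13a rose by 0.61 to 1.18. Past the threshold, an edgeR adjusted p of at most 0.05, were 6.67% of the members as lower, against 1.26% of all 13374 genes tested, and 4% as higher, against 1.07%. In both directions together the 8 called members are 10.7% of those tested, against 2.33% of all genes. The other 67 tested members did not pass, and 8 members had too few counts for a test. Over the tested members the median log2FC was 0.25, and 62 of 75 (82.7%) were above 0, against 49.1% of all genes. Mitochondrial ribosomal protein genes leaned the same way, with 59 of 74 tested above 0 and a median of 0.11.

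In diestrus, 5 members were again lower in FL1 and none was higher, of 75 tested. Rpl29, Rps2, Rpl35a, Rpl32 and Rpl7a fell by 1.39 to 5.88 on the log2 scale. The 5 lower members are 6.67% of those tested, against 1.82% of all 13259 genes as lower, and 0 as higher stand against 2.29%. At an unadjusted p under 0.05 there were 2 higher and 13 lower members, together 20% of those tested, against 17.7% of all genes. DESeq2 called 6 members lower and none higher in diestrus, and limma-voom called 4 lower and 1 higher. The median log2FC of the members was -0.14, and 18 of 75 (24%) were above 0, against 48.2% of all genes. The comparisons in estrus and in diestrus share no library.

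**Figure D2:**
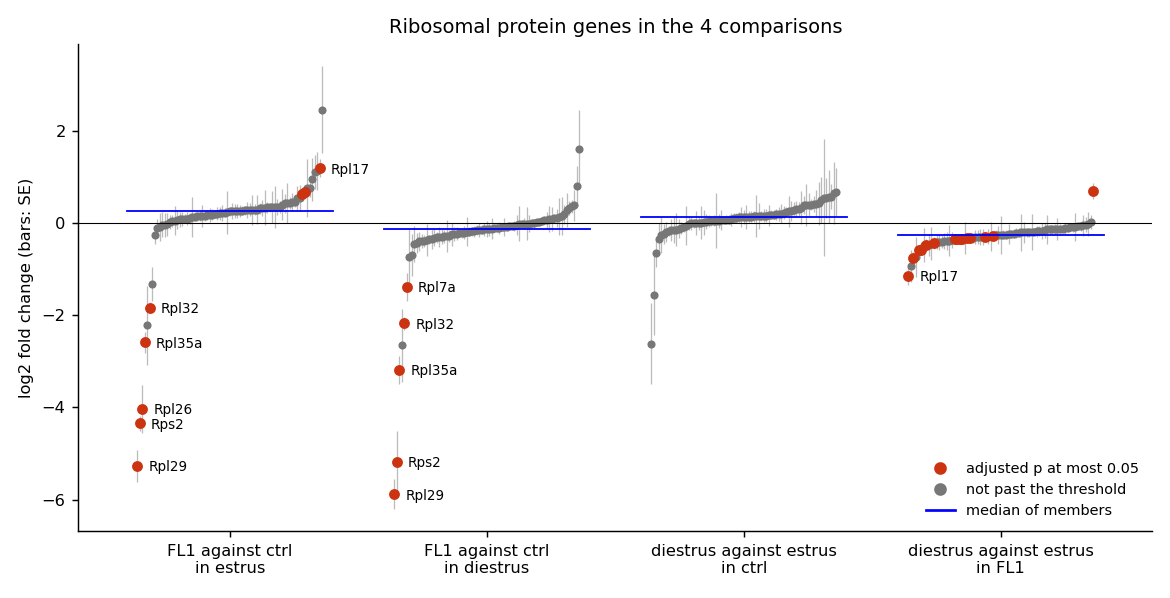
Log2 fold change (vertical axis, with SE as bars) of every tested ribosomal protein gene, ranked within each of the 4 comparisons on the horizontal axis. Red points passed the threshold and blue lines are the medians of the members (0.25, -0.14, 0.12 and -0.26 from left to right); a few members lie 2 to 6 units below 0 in both comparisons of the lines.

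Rpl29, a protein of the surface of the large subunit, showed the largest difference between the lines in both stages (chr9:106429454-106431568, plus strand, GRCm38). In estrus its level was 57.7, 29.1, 57.8, 57.3 and 28.3 CPM in ctrl and 1.61, 1.5, 0.524, 0.590 and 1.71 CPM in FL1. In diestrus it was 35.9, 53.6, 27.2, 57.6 and 56.2 CPM in ctrl and 0.572, 1.05, 1.42, 0.283 and 0.500 CPM in FL1. Every FL1 library was more than 10 times lower than every ctrl library. The FL1 levels rest on few counts, 4 to 16 per library in estrus and 2 to 9 in diestrus. FL1 diestrus replicate 4, with 2 counts, was not told from 0, and replicate 5 had 3 counts. The log2FC was -5.27 (SE 0.35, edgeR adjusted p = 7.24e-07) in estrus and -5.88 (SE 0.33, edgeR adjusted p = 3.85e-07) in diestrus. Rpl29 has 57 copies, of which 56 are pseudogenes, and with their counts added to it the log2FC was -1.78 in estrus and -2.02 in diestrus, still past the threshold.

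Rps2, at the mRNA entry side of the small subunit (chr17:24718116-24721929, plus strand), was at 236, 230, 258, 249 and 179 CPM in ctrl in estrus. In FL1 in estrus it was at 11.3, 8.70, 8.59, 14.6 and 13.4 CPM. Its log2FC was -4.35 (SE 0.17, edgeR adjusted p = 3.95e-09). The lines were far apart here, and the ctrl animals were alike. In diestrus ctrl was at 502, 246, 13.1, 535 and 407 CPM and FL1 at 8.30, 11.8, 7.87, 9.20 and 9.66 CPM, so 1 ctrl animal, replicate 3, was just above the highest FL1 library and the groups did not overlap. The log2FC in diestrus was -5.18 (SE 0.67, edgeR adjusted p = 0.00059), and limma-voom did not call it. Adding the counts of its 50 copies gave -2.34 and -3.18. Rps2 overlaps 1 annotated gene on its own strand and 2 on the opposite strand, and the strand setting of the counting is not given in the sources used here.

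Rpl35a, a large subunit protein and one of the genes mutated in Diamond-Blackfan anemia (chr16:33056453-33060189, plus strand), fell by 2.59 in estrus (SE 0.23, edgeR adjusted p = 3.23e-05) and by 3.19 in diestrus (SE 0.30, edgeR adjusted p = 2.6e-05) on the log2 scale. Its level was 72.7, 44.0, 44.5, 43.7 and 39.6 CPM in ctrl and 9.25, 3.90, 8.59, 9.89 and 8.76 CPM in FL1 in estrus. In diestrus ctrl was at 100.4, 91.1, 39.2, 90.8 and 39.2 CPM and FL1 at 6.30, 11.0, 5.67, 9.34 and 7.16 CPM. Within ctrl in diestrus, 3 animals were at 90.8 CPM or more and 2 at 39.2 CPM. Adding its 14 copies left log2FC of -1.81 and -2.35, both past the threshold.

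Rpl32, a large subunit protein (chr6:115805505-115808747, minus strand), was the most counted of the members that were lower in FL1. In estrus it was at 983, 904, 955, 1012 and 773 CPM in ctrl and at 290, 255, 213, 279.9 and 255.7 CPM in FL1. In diestrus the values were 1284, 1084, 951, 689 and 1025 CPM in ctrl and 210, 257, 199, 236 and 212 CPM in FL1. The lowest ctrl library was at more than 2 times the highest FL1 library in each stage. The log2FC was -1.84 (SE 0.12, edgeR adjusted p = 5.21e-07) in estrus and -2.18 (SE 0.14, edgeR adjusted p = 9.53e-07) in diestrus.

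A processed pseudogene of Rpl32, Rpl32l, had the opposite pattern. Its level was 0.268, 0.662, 0, 0.565 and 0.703 CPM in ctrl and 24.1, 17.1, 15.5, 17.6 and 15.8 CPM in FL1 in estrus. In diestrus ctrl was at 0.283, 0, 0.150, 9.70 and 0 CPM and FL1 at 13.9, 20.8, 15, 15 and 19.8 CPM. The 1 ctrl animal with Rpl32l at 9.70 CPM, replicate 4 in diestrus, is also the ctrl animal with the lowest Rpl32, at 689 CPM. Rpl32l rose by 5.34 in estrus (SE 0.38, edgeR adjusted p = 1.83e-06) and by 3.18 in diestrus (SE 0.83, edgeR adjusted p = 0.0443). The gain of Rpl32l is small beside the loss of Rpl32 in CPM, and with its 3 copies added Rpl32 was still lower, with log2FC of -1.74 and -2.07. Over 398 aligned bases the transcripts of both genes in the annotation are identical at 388. The end of the coding part of Rpl32 (chr6:115805563-115805682, minus strand, GRCm38) and the aligned stretch of Rpl32l (chr10:20208768-20208887, plus strand) are shown so that their likeness can be read, with capitals where the 2 differ.
Rpl32: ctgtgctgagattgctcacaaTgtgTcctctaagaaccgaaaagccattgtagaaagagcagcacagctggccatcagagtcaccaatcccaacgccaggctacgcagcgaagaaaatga
Rpl32l: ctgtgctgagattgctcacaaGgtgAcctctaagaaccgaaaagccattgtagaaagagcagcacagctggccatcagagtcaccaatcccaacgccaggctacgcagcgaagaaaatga

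Rpl26, a protein beside the exit of the peptide tunnel that is also known to bind the p53 messenger RNA (chr11:68901583-68906989, plus strand), varied between ctrl animals. In estrus ctrl was at 246, 25.5, 198, 469 and 235 CPM and FL1 at 17.5, 11.7, 12.6, 16.7 and 13.5 CPM, with a log2FC of -4.03 (SE 0.52, edgeR adjusted p = 0.000636). In diestrus ctrl was at 319, 20.5, 15.6, 16.4 and 21.8 CPM and FL1 at 9.45, 15.6, 11.5, 13.3 and 13.7 CPM. Of the 10 ctrl animals, 5 were thus at 198 CPM or more and 5 at 25.5 CPM or less, and every FL1 animal was at 17.5 CPM or less. The groups did not overlap in diestrus either, by a narrow margin. The diestrus value, -2.66 (SE 0.80, edgeR adjusted p = 0.0823), did not pass and was -0.55 without ctrl diestrus replicate 1.

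Rpl34, another large subunit protein (chr3:130726831-130730398, minus strand), varied between ctrl animals in the other direction. In estrus ctrl was at 10.2, 11.9, 45.5, 12.6 and 592 CPM and FL1 at 914, 784, 579, 688 and 713 CPM. In diestrus ctrl was at 11.3, 10.5, 252, 670 and 28.7 CPM and FL1 at 650, 633, 530, 563 and 565 CPM. All 10 FL1 animals were at 530 CPM or more, which 2 of the 10 ctrl animals also reached. The log2FC was 2.46 (SE 0.94, edgeR adjusted p = 0.212) in estrus and 1.60 (SE 0.85, edgeR adjusted p = 0.35) in diestrus. Without ctrl estrus replicate 5 the estrus value was 5.20 (edgeR adjusted p = 3.7e-06), and without ctrl diestrus replicate 4 the diestrus value was 2.97 (edgeR adjusted p = 0.049).

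**Figure D3:**
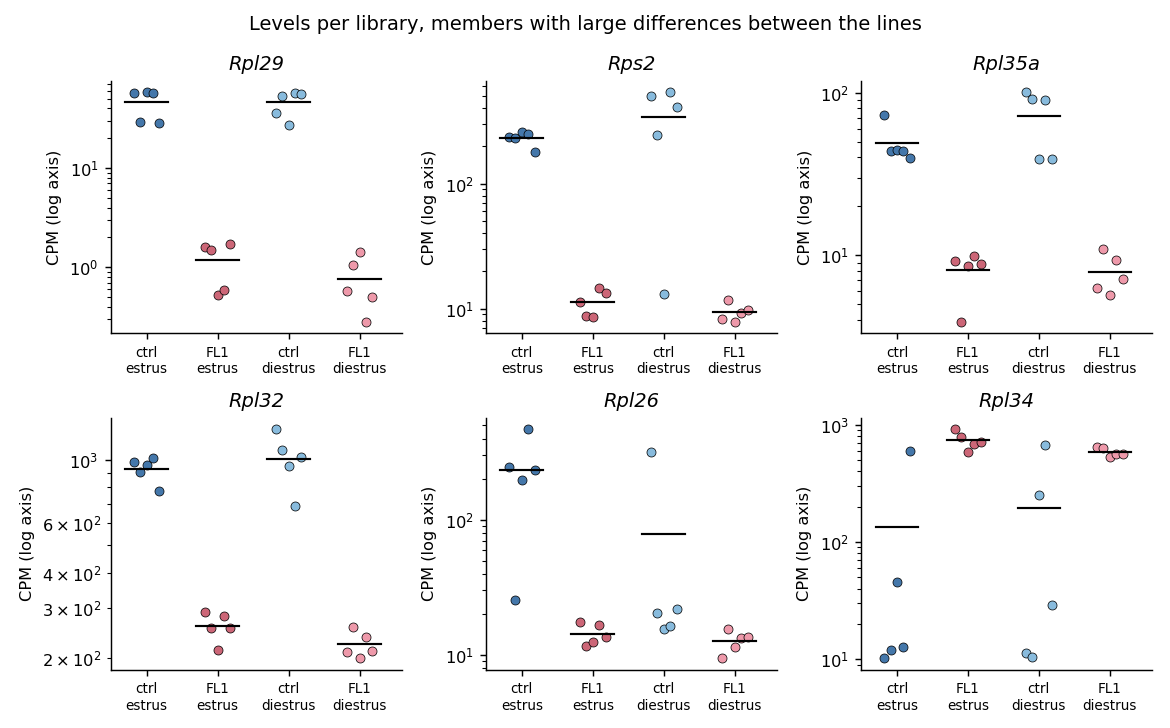
Level in CPM (vertical axis, logarithmic) of 6 large and small subunit members in each of the 20 libraries; points are libraries and lines are group means. Rpl29, Rps2, Rpl35a and Rpl32 are lower in FL1 in both stages. Rpl26 and Rpl34 vary widely between animals in ctrl but not in FL1, and in diestrus so does Rps2.

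Rpl7a, a large subunit protein, was the fifth member lower in diestrus, with 4.43, 4.38, 4.96, 4.11 and 6.92 CPM in ctrl and 1.29, 2.09, 1.26, 2.26 and 2.50 CPM in FL1. Its log2FC was -1.39 (SE 0.31, edgeR adjusted p = 0.019) in diestrus and -1.33 (SE 0.37, edgeR adjusted p = 0.0817) in estrus. Its 45 copies held 3439 counts against 532 for Rpl7a itself, and with them added the diestrus value was -0.28 (edgeR adjusted p = 0.35) and no longer passed.

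Rps3, at the mRNA entry side of the small subunit and also known for DNA repair, rose in FL1 in estrus. It was at 833, 844, 1037, 845 and 953 CPM in ctrl and at 1582, 1545, 1155, 1399 and 1471 CPM in FL1, without overlap. The log2FC was 0.66 (SE 0.12, edgeR adjusted p = 0.00812). All 51-base words of its last 300 bases are unique to it when overlapping genes are left aside, and 2 annotated genes overlap it on its own strand. In diestrus the lines did not differ detectably, at 1181 ± 137 CPM in ctrl and 1171 ± 51.2 CPM in FL1 (SD, n = 5).

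Rpl13a, a large subunit protein known for silencing translation of inflammatory messenger RNAs after its release from the ribosome, rose by 0.61 in estrus (SE 0.13, edgeR adjusted p = 0.0268). It was at 166, 218, 215, 223 and 180 CPM in ctrl and at 334, 349, 219, 320 and 311 CPM in FL1, where replicate 3 lay within the ctrl range. The call was lost in 5 of the 10 fits that left out a library: without ctrl estrus replicate 1 (edgeR adjusted p = 0.0634) and without any of FL1 estrus replicates 1, 2, 4 and 5, the highest adjusted p being 0.0823. Rpl17, beside the peptide exit tunnel, rose by 1.18 in estrus (SE 0.20, edgeR adjusted p = 0.00545), from 6.70, 10.8, 7.95, 8 and 13.2 CPM in ctrl to 20.3, 23.5, 16.7, 22.7 and 22.1 CPM in FL1. The groups did not overlap, and with its 18 copies added the log2FC was 0.92, past the threshold.

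Without overlap between the lines were 11 of 75 tested members (14.7%) in estrus, against 4.89% of all genes, and 7 of 75 (9.33%) in diestrus, against 5.45%. In estrus 6 of the 11 were higher in FL1, among them Rpl41, Rpl15, Rps21 and Rpl9, which did not pass the test. Rpl41, the shortest ribosomal protein, was at 137, 113, 123, 104 and 128 CPM in ctrl and at 202, 172, 146, 140 and 166 CPM in FL1 (log2FC 0.45, SE 0.12, edgeR adjusted p = 0.0664).

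For 2 members, ctrl animals with a high level of a copy had a low level of the member. Rplp1, a protein of the acidic stalk that binds translation factors, was at 834, 526, 797, 866 and 753 CPM in ctrl in estrus and its processed pseudogene Gm11942 at 1.88, 687, 5.74, 3.76 and 5.45 CPM in the same animals. In ctrl in diestrus Rplp1 was at 1020, 829, 516, 533 and 541 CPM and Gm11942 at 1.23, 1.78, 635, 684 and 619 CPM. The 4 libraries with Gm11942 at 619 CPM or more were the 4 with the lowest Rplp1 of all 20, and in FL1 Gm11942 stayed between 0.833 and 2.25 CPM. Rplp1 itself differed little between the lines in diestrus (log2FC 0.07, SE 0.17, edgeR adjusted p = 0.886), and Gm11942 fell by 8.24 (SE 1.52, edgeR adjusted p = 0.00701). With its 3 copies added to it Rplp1 was lower (log2FC -0.58, SE 0.11, edgeR adjusted p = 0.00687). These sums were 1023, 833, 1159, 1225 and 1170 CPM in ctrl and 667, 812, 686, 734 and 730 CPM in FL1. The highest sums were those of the ctrl animals with Gm11942 at 619 CPM or more, so the lower value rests largely on them.
Rplp1: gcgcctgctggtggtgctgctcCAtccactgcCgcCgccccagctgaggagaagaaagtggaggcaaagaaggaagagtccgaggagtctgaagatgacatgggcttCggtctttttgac
Gm11942: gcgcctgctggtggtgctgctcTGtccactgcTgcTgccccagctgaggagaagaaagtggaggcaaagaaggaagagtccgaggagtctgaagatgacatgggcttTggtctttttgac
These are the last coding bases of Rplp1 (chr9:61913327-61913446, minus strand, GRCm38) and the aligned bases of Gm11942 (chr4:32965110-32965229, plus strand), with capitals where they differ, shown for the same reason. Over 345 aligned bases they differ at 9.

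Rpsa, the laminin receptor protein at the mRNA exit side of the small subunit, behaved likewise. In ctrl in estrus it was at 5.63, 59.2, 31.2, 43.9 and 31.6 CPM and its processed pseudogene Rpsa-ps10 at 78.6, 1.65, 39.3, 44.3 and 40.4 CPM in the same animals. In ctrl in diestrus Rpsa was at 80.6, 59.9, 28.4, 29.8 and 28.9 CPM and Rpsa-ps10 at 0.0943, 0.684, 33.6, 46.4 and 42.1 CPM. The animal with the highest pseudogene had the lowest Rpsa, and the 3 ctrl animals with the pseudogene under 2 CPM had the highest Rpsa of the line. In the 10 FL1 libraries Rpsa-ps10 was at 1.32 CPM or less and Rpsa at 43.3 to 84.1 CPM. The log2FC of Rpsa was 1.10 in estrus (SE 0.37, edgeR adjusted p = 0.161), and -0.02 with its 14 copies added. In diestrus, with copies added, Rpsa was lower in FL1 (log2FC -0.44, SE 0.10, edgeR adjusted p = 0.0245). Below are an end of the coding part of Rpsa (chr9:120131400-120131491, plus strand, GRCm38) and the aligned bases of Rpsa-ps10 (chr3:150072658-150072749, minus strand), with capitals at the 1 base where they differ.
Rpsa: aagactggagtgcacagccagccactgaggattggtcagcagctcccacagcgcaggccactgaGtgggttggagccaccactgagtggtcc
Rpsa-ps10: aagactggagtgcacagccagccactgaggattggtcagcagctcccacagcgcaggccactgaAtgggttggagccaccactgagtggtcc

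**Figure D4:**
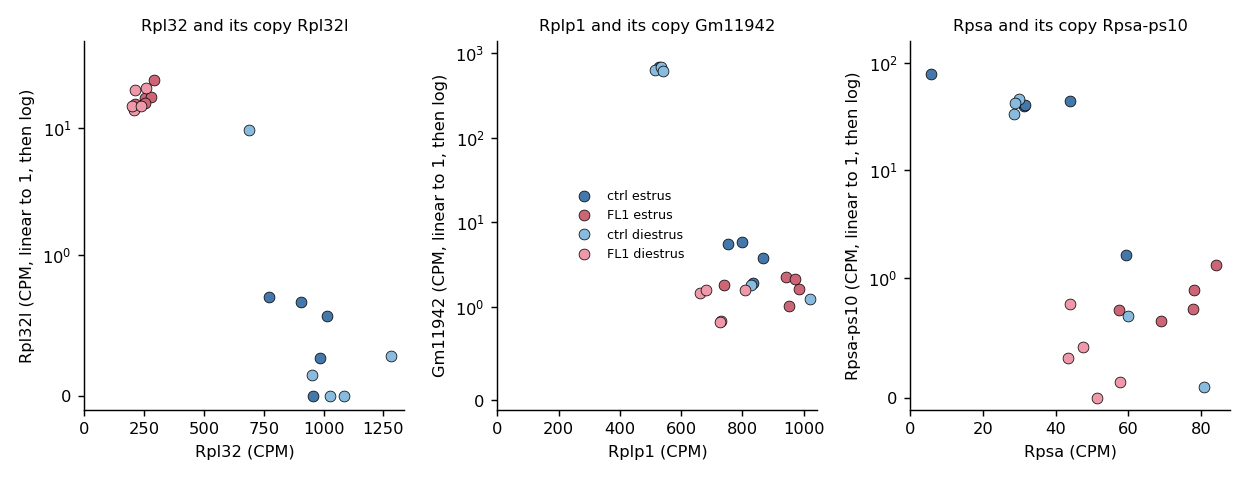
Level of a copy (vertical axis, CPM, linear up to 1 and logarithmic above) against that of its ribosomal protein gene (horizontal axis, CPM) in each of the 20 libraries, for Rpl32 with Rpl32l, Rplp1 with Gm11942 and Rpsa with Rpsa-ps10. For Rpl32 the FL1 libraries have a high copy and a low member. The 1 ctrl library with a raised Rpl32l has the lowest Rpl32 of ctrl, but lies above every FL1 library. For Rplp1 the libraries with a high copy are ctrl libraries and have the lowest Rplp1 of all. For Rpsa they are ctrl libraries with lower Rpsa than the other ctrl libraries, and the highest of them reaches the lowest FL1 libraries.

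Single animals stood far apart in other members too. Rpl30, a large subunit protein, was at 77.0, 73.0, 84.6, 5.55 and 1.76 CPM in ctrl in estrus and at 39.3 to 103 CPM in the other 15 libraries. Rps18, one of the reference genes of the qPCR of the study, was at 5.09, 3.48, 3.91, 97.7 and 7.03 CPM in ctrl in estrus and at 2.03 to 7.78 CPM in the other 15 libraries. Its log2FC of -2.22 in estrus (SE 0.86, edgeR adjusted p = 0.216) was 0.08 without ctrl estrus replicate 4. The 6 copies of Rps18 held 5494 counts against 1645 of its own. With them added, ctrl in estrus was at 43.4, 31.1, 41.7, 117 and 14.6 CPM and the other 15 libraries at 34.1 to 59.1 CPM. The other reference of the family, the stalk protein gene Rplp0 (named 36B4 there), was at 353 to 833 CPM in all libraries, and none of the 5 tests called either gene. Over the 76 members tested in all 20 libraries, the median SD of log2 CPM within groups was 0.29, against 0.28 for 13102 other genes in the same range of levels. It was 0.19 over the 12 tested members without copies and 0.31 over the 64 with copies. Rpl34 (SD 1.83), Rpl30 (1.30), Rpl26 (1.23), Rps2 (1.15) and Rps18 (1.07) varied most, and Rpl22 (0.10), Rpl7l1 (0.11) and Rpl22l1 (0.11) least. The cause of these differences between animals was not tested.

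Between the stages, ctrl ovaries showed no member past the threshold, where 2.85% of all genes passed. FL1 ovaries showed 15, which are 20.5% of those tested, where 15.9% of all genes passed. In FL1, 14 members were lower in diestrus than in estrus and 1 was higher, of 73 tested. The 14 are 19.2% of the tested members, against 7.42% of all 13350 genes as lower, and the 1 is 1.37%, against 8.49%. The median log2FC was -0.26, and 2 of 73 members were above 0, against 49.0% of all genes. At an unadjusted p under 0.05 were 30 members (41.1%), against 30.1% of all genes. Without overlap between the stages in FL1 were 5 of 73 members (6.85%), against 12.2% of all genes. In ctrl edgeR called 0 of 75 tested members, against 1.06% of 13334 genes as higher, 1.78% as lower and 2.85% in all. The median of the members in ctrl was 0.12, and 5 (6.67%) had an unadjusted p under 0.05, against 15.4%. Without overlap between the stages was 1 member in ctrl, Rps21 (1.33%, against 4.52%), and DESeq2 called 1, Rps3, and limma-voom none. The FL1 estrus libraries also enter the comparison of the lines in estrus, and the FL1 diestrus libraries that in diestrus, so these results are not independent of each other. Leaving out FL1 diestrus replicate 3 left 6 called members, and leaving out FL1 estrus replicate 3, the FL1 estrus library with the lowest share, left 26.

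The largest decreases from estrus to diestrus in FL1 were those of Rpl17, Rpl13a, Rpl41 and Rpsa. Rpl17 fell by 1.15 (SE 0.21, edgeR adjusted p = 0.00111), from the estrus values above to 7.59, 7.71, 6.30, 11.5 and 14.3 CPM in diestrus. Rpl13a fell by 0.75 (SE 0.11, edgeR adjusted p = 0.000213) to 168, 179, 169, 197 and 196 CPM, and Rpl41 fell by 0.59 (SE 0.11, edgeR adjusted p = 0.00153) to 127, 121, 102, 98.5 and 101 CPM. In these 3 genes the stages did not overlap in FL1. Rpsa was at 84.1, 78.1, 57.4, 77.8 and 68.9 CPM in estrus and at 51.2, 57.5, 43.9, 47.6 and 43.3 CPM in diestrus in FL1, and fell by 0.58 (SE 0.11, edgeR adjusted p = 0.00241). Only the highest diestrus animal reached the lowest estrus animal.

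Of the other members lower in diestrus in FL1, the stalk proteins Rplp1 and Rplp2 fell by 0.35 and 0.30 on the log2 scale. The third stalk protein, Rplp0, had a log2FC of -0.42 (SE 0.15, edgeR adjusted p = 0.0771) and did not pass. Rps19, the gene most often mutated in Diamond-Blackfan anemia, fell by 0.49 (SE 0.13, edgeR adjusted p = 0.0163). Rpl31, Rpl15, Rpl22l1, Rpl27a, Rpl8 and Rps3 had a log2FC between -0.29 and -0.44. Of the 10 fits that left out a library, the call held in 1 for Rps3, 2 for Rpl31 and Rpl8 and 3 for Rplp2. It held in 6 for Rpl27a, 8 for Rpl15, 9 for Rplp1 and Rps19 and 10 for Rpl22l1. Rpl22l1, the relative of Rpl22 that can replace it in the large subunit, was at 197, 202, 183, 193 and 219.8 CPM in estrus and at 169, 158, 136, 149 and 163 CPM in diestrus in FL1, without overlap, while Rpl22 itself did not pass (log2FC -0.10, SE 0.08). The 1 member that rose was Rpl23a, which binds at the tunnel exit where the signal recognition particle docks, from 9.25, 20.2, 17.1, 17.3 and 13.7 CPM to 25.6, 23.9, 23.1, 27.6 and 23.8 CPM (log2FC 0.68, SE 0.17, edgeR adjusted p = 0.012). With its 18 copies added the rise was 0.39, past the threshold.

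**Figure D5:**
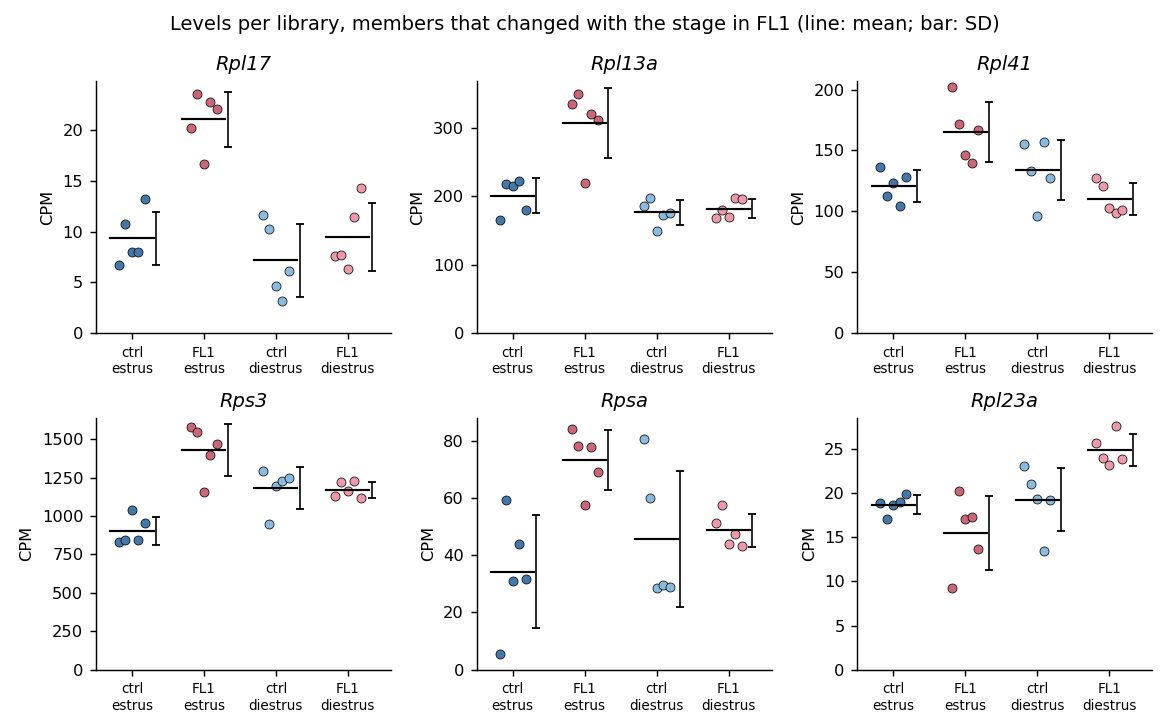
Level in CPM (vertical axis, from 0) in each of the 20 libraries of 6 members that passed the test between the stages in FL1. Points are libraries, lines group means and bars SDs (n = 5); Rpl17, Rpl13a and Rpl41 are highest in FL1 in estrus, and Rpl23a is highest in FL1 in diestrus.

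The difference of the stage effects between the lines was tested over all 20 libraries. None of the 76 tested members passed in edgeR, where 0.0565% of 14154 genes did (0.0353% as higher and 0.0212% as lower), and 24 members had an unadjusted p under 0.05 (31.6%, against 11.7% of all genes). DESeq2 called 2 members, Rps3 (log2FC of the difference -0.67, adjusted p = 0.00206) and Rpl41 (-0.74, adjusted p = 0.0269), and limma-voom called none. In edgeR the values were -0.68 for Rps3 (SE 0.14, adjusted p = 0.0754) and -0.74 for Rpl41 (SE 0.18, adjusted p = 0.114). Over the tested members the median of the difference was -0.37, and 3 of 76 were above 0, against 49.0% of all genes. Under edgeR the lines were thus not shown to differ in the stage effect of any single member.

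By position in the ribosome, the lists are small, and their counts are given beside the shares of all genes called. Between the lines these shares were 2.33% in estrus and 4.11% in diestrus, and with the stage in FL1 15.9%. The stage calls of Rps3, Rpl31 and Rplp2 held in only 1, 2 and 3 of the 10 fits that left out a library. Of the 3 stalk proteins none passed between the lines, and 2 (Rplp1 and Rplp2) were lower with the stage in FL1. Of the 3 proteins of the mRNA entry site, Rps2 was lower in both stages and Rps3 higher in estrus, and Rps9 did not pass (log2FC 0.26 in estrus, SE 0.10), while with the stage in FL1 Rps3 was lower. Of the 4 proteins of the mRNA exit site (Rpsa, Rps14, Rps26, Rps28) none passed between the lines, and Rpsa was lower with the stage in FL1. Of 7 proteins at the peptide tunnel exit, Rpl26 was lower and Rpl17 higher in estrus, none passed in diestrus, and with the stage in FL1 Rpl17 and Rpl31 were lower and Rpl23a higher. Rpl5 and Rpl11, which with the 5S RNA bind MDM2, did not pass in any comparison. Of 12 genes mutated in Diamond-Blackfan anemia, Rpl26 and Rpl35a were lower in estrus, Rpl35a in diestrus, and Rps19 was lower with the stage in FL1. As lower were called 1.26%, 1.82% and 7.42% of all genes in these comparisons, and 1 of 12 with the stage in FL1 is near that background.

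Other genes of the same machinery that lie outside the symbol rule gave no call. Fau, which makes a fusion of a ubiquitin-like part with a ribosomal protein, Rpl36al, Rps27rt and the scaffold Rack1 all had adjusted p-values above 0.05 in edgeR where they were tested. Rack1 was the most counted of them with a mean of 1602 CPM, and its log2FC was 0.24 (SE 0.11) in estrus and -0.05 (SE 0.08) in diestrus. Among 78 mitochondrial ribosomal protein genes, none of 74 tested passed between the lines in estrus. In diestrus 3 of 74 were lower (Mrpl1, Mrpl41, Mrps28) and 1 higher (Mrps9), where 1.82% of all genes were called lower and 2.29% higher. With the stage in FL1, 7 of 75 were lower and none higher, with a median of -0.13, where 7.42% of all genes were called lower, a share near that of the list. By direction alone, 59 of 74 were above 0 between the lines in estrus and 48 of 74 below 0 in diestrus. With the stage in FL1 57 of 75 were below 0, and in the difference of the stage effects 64 of 75. The one-sided direction of the cytosolic members was thus also present in this list, with medians of smaller size.

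The counts of the following lists stand beside the shares of all genes called. These were 2.33% in estrus and 4.11% in diestrus between the lines, and 2.85% in ctrl and 15.9% in FL1 between the stages. Of 28 ribosome assembly factors, Nop10 was lower in FL1 in diestrus (log2FC -0.32, SE 0.08, edgeR adjusted p = 0.042) and higher in diestrus in ctrl (0.53, SE 0.10, edgeR adjusted p = 0.0171). Bop1 was higher in diestrus in FL1. Of 16 genes of mTOR signalling and of the control of messenger RNAs with a pyrimidine start, Eif4ebp1, the repressor of cap-dependent translation, was lower in FL1 in diestrus (log2FC -0.42, SE 0.11, edgeR adjusted p = 0.0487) and lower in diestrus in FL1 (-0.39, SE 0.08, edgeR adjusted p = 0.00418). Of 19 translation factors and other genes with such a start, none passed between the lines, and Eef1g and Snhg1 were lower with the stage in FL1. Of 19 genes of RNA polymerase I and its factors, none passed between the lines, and with the stage in FL1 Polr1c, Polr2f and Taf1d were lower and Ubtf higher. In the list of translation factors and in that of RNA polymerase I 18 genes were tested. The called genes are a smaller share of the first list and a larger share of the second than 15.9%, on few genes. Between the lines in estrus, log2FC above 0 were found in 13 of 18 translation factor genes and 14 of 18 of RNA polymerase I. For assembly factors it was 13 of 27 and for mTOR genes 8 of 16. Beside the stage result in FL1, 6 of 8 luteal markers were higher and 1 lower in diestrus, their summed level being 17960 to 35376 CPM in estrus and 35681 to 46518 CPM in diestrus, with none of the 8 at 0. The summed level of 10 oocyte markers was 200.1 to 470 CPM in estrus and 165 to 260 CPM in diestrus, and Bmp15 was lower. In the same comparison 4 of 9 tested granulosa markers, 4 of 5 blood markers and 2 of 3 theca markers were higher and none lower, and of 5 fat markers 1 was lower. Of all genes, 8.49% were called higher and 7.42% lower there. Between the lines no marker passed in estrus, and in diestrus Foxl2, Lhcgr, Hba-a2 and Cd68 were higher and Kit lower in FL1. The part of these cell types in the results was not tested.

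The pyrimidine start was looked for in RefSeq promoter windows (GRCm38.p6), which matched 63 of the 83 members. The motif was a C within 5 bases of the annotated start followed by at least 4 bases that are C or T, on the strand of the gene. It was found for 29 of the 63 members (46.0%), against 21.2% of 27025 genes. Of the 21 members that passed any test, 14 had a window and 9 of these the motif (64.3%). The 30 bases around the start of Rpl13a (chr7:45128731-45128760, minus strand) and of Rplp2 (chr7:141447636-141447665, plus strand), both lower with the stage in FL1, hold it in capitals, and those of Rpl41 (chr10:128549154-128549183, minus strand), which fell as well, do not hold it.
Rpl13a: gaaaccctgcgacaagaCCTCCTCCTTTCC
Rplp2: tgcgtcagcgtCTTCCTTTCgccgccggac
Rpl41: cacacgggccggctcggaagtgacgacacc
A match is a description of letters in the reference genome, whose annotated start may lie some bases from the start used in the ovary.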

How the data were processed

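Ovaries of 20 mice were measured by QuantSeq 3' mRNA-Seq. The authors trimmed the reads to 51 bases, aligned them with STAR to GRCm38 (Ensembl release 95) and counted uniquely assigned reads per gene; the submitters' processing notes name STAR and Cuffdiff without saying what each did, and the tool that made the counts, its strand setting and molecular identifiers are not given in the sources used here. The values they deposited are raw counts, 1 table per library. Group and number of each library come from the labels. The members and lists were chosen with earlier results of these data known.

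GENCODE M21 names 54809 of the 54838 genes. edgeR 4.0.16 (glmQLFit, glmQLFTest, R 4.3.3) with TMM scaling and filterByExpr (minimum count 10) was fitted on all genes, with Benjamini-Hochberg adjusted p-values and a threshold of 0.05. Each comparison used the 10 libraries of its 2 groups and the interaction all 20. The SE was taken as the size of the log2FC over the root of the F statistic. CPM use TMM factors over 20 libraries, and log2 CPM a prior count of 2. The test was checked on simulated counts. Alternatives were DESeq2 1.42.0, limma-voom 3.58.1, other scalings and filters, a joint fit, a block for replicate number, counts with copies added and each library left out. Copies were found among annotated transcripts only, as no genome sequence was used here.

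A share of counts per library has a 95% Wilson interval of at most ± 0.0123 percentage points, which covers counting error only, since PCR duplicates are not separate molecules. In all 40 pairs of libraries of a group the counts differed by more than sampling noise (chi-square per gene 6.32 to 46.6, where 1 is noise). Named genes are members past the threshold in any test, the 5 highest and lowest by level, the 5 largest differences each way, members of the role lists, Rps18, Rplp0, Rpl29 and Rps2, members not tested, and genes of other lists past the threshold. Rpl30 and the copies were chosen after their values were seen. Values of some named genes are not reported here.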

Additional observations from a re-analysis of the deposited data

Results flagged for a closer look

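Examined were 112 sets of 5 libraries (shares and the members described one by one). In 11 of them 1 library lay apart from the other 4, with a gap to its neighbour of over 0.71 of the range. About 1 in 20 independent sets would pass this cutoff by chance. The sets here share libraries, and many members were named for their values, so the 11 cannot be set against that rate. High libraries were ctrl diestrus replicate 1 for Rpl26 (319 CPM, next 21.8 CPM) and Rpl31 (78.8 CPM), ctrl estrus replicate 5 for Rpl34 (592 CPM, next 45.5 CPM), ctrl estrus replicate 1 for Rpl35a (72.7 CPM), ctrl estrus replicate 4 for Rps18 (97.7 CPM, next 7.03 CPM), FL1 diestrus replicate 2 for Rpl15 (96.2 CPM) and FL1 diestrus replicate 1 for Rplp2 (214 CPM). Low libraries were ctrl estrus replicate 5 for Rpl15 (46.2 CPM), FL1 estrus replicate 2 for Rpl35a (3.90 CPM), FL1 estrus replicate 3 for Rplp1 (740 CPM) and ctrl diestrus replicate 2 for Rps3 (945 CPM). The gaps of Rpl26, Rpl34 and Rps18, all within ctrl, were over 10-fold, and the others were under 3-fold.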

How the results depend on the processing

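The medians over the members kept their sign under every alternative run, including members without copies only, an alternative chosen after seeing the data. In estrus, 8 called members became 13 without a filter on low counts (7 higher, 6 lower) and 7 to 12 with a library left out. In diestrus, 5 became 3 when at least 10 counts were required in every library, where fewer members are tested, and 5 to 6 with a library left out. Between the stages in ctrl, 0 became 1 without a filter, 1 in DESeq2, 2 in a joint fit of all 20 libraries and 0 to 1 with a library left out (Rpl26 without ctrl diestrus replicate 1, Rps2 without replicate 3). In FL1, 15 became 7 in the joint fit and 6 to 26 with a library left out, the counts being 9 without FL1 estrus replicate 5 and 8 without FL1 diestrus replicate 5. The interaction gave 2 in DESeq2 and 0 to 1 with a library left out (Rps3 without FL1 estrus replicate 3, Rpl26 without ctrl diestrus replicate 1). Apart from the smaller number tested, the cause of these shifts was not tested.

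The mean share in ctrl was 1.81% in estrus and 1.89% in diestrus. With a library left out, the difference of these shares ranged from -0.0434 percentage points (without ctrl diestrus replicate 1) to 0.152 (without replicate 3). In another measure, the median log2 CPM of the tested members, the stages in ctrl differed by -0.0179 on the log2 scale. Without ctrl diestrus replicate 1 the difference of the lines in diestrus was -0.0806 instead of -0.199 percentage points, the median log2FC of the lines in diestrus -0.08 instead of -0.14 and that of the stages in ctrl 0.06 instead of 0.12. Without FL1 estrus replicate 1 the difference of the lines in estrus was 0.18 instead of 0.29 percentage points. For single called members, 462 of 529 alternative values kept the call, 67 lost it and none changed sign. Replicate numbers mark different animals, and same-numbered libraries correlated at -0.10 to 0.13. With replicate number as a block, 8, 5, 0 and 17 members were called in the 4 comparisons and 0 in the interaction; the median log2FC was 0.24, -0.14, 0.10 and -0.26.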
